A study of Mus musculus with 12 samples.

Results

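Excitation-contraction coupling and the calcium store of muscle were followed here through 10 genes, Ryr1, Cacna1s, Atp2a1, Casq1, Casq2, Trdn, Jph1, Jph2, Sln and Pln, of 21187 genes measured. Each was taken as the gene whose Entrez identifier carried that symbol in the authors' deposited annotation, and all 10 matched 1 gene. The cells were myotubes of C2C12, an established mouse myoblast line that fuses into multinucleated muscle fibres in culture, after 3 days of differentiation. In the LIF experiment the myotubes were left untreated or received 10 ng/ml mouse leukemia inhibitory factor (LIF), which signals like interleukin-6 through the receptor chain gp130. In the conditioned medium experiment they were left untreated or received medium conditioned by C26 cells, a colon carcinoma line whose tumours cause muscle wasting in mice, as 1 part in 3 of the differentiation medium. Each arm was sampled at 4, 8 and 24 h, with its own untreated culture at each time. Total RNA from 3 wells was pooled for each array and 1 array was run per agent, arm and time, which gives 12 arrays and no replicate of any group. All cultures come from 1 cell line.

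In skeletal muscle an action potential runs into the transverse tubules, where the voltage sensor encoded by Cacna1s opens the release channel Ryr1 of the sarcoplasmic reticulum by direct contact. Junctophilins hold the tubule and the reticulum together, triadin links the release channel to calsequestrin, and calsequestrin binds the stored calcium. The pump Atp2a1 returns calcium to the store, and the small membrane proteins sarcolipin (Sln) and phospholamban (Pln) inhibit such pumps.

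Values were log2 expression levels with 1 value per gene and array. Levels were deposited to 1 decimal in the LIF experiment, so a difference there moves in steps of 0.1, and to 2 decimals for conditioned medium. Array medians lay between 5.5 and 6.0 in the LIF experiment and between 6.14 and 6.74 in the conditioned medium experiment. In both, the 24 h arrays had the lowest medians, so levels are set against the untreated array of the same time. A gene was counted as above background on an array when it exceeded the level that 5% of the 1290 olfactory and vomeronasal receptor genes exceed. By that measure 8 of the 10 genes were above background on all 12 arrays. Pln was in the background range on all 12, and Sln was above it on 1, the untreated 8 h array of the LIF experiment, at 5.0 against a limit of 4.955.

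All 12 myotube markers, among them Myh3, Acta1, Ckm and Ttn, were above background on all 12 arrays. Of 5 heart muscle markers, Myh6 and Tnni3 were above background on all 12 arrays, Nppa on 8, Myl7 on 1 and Ryr2 on none. Of 7 markers of colon carcinoma epithelium, Cdh1 and Krt8 were above background on all 12 arrays, Krt18 on 10, Cdx2 on 7, and Epcam, Krt20 and Vil1 on none. Of 6 macrophage and leukocyte markers, Cd68 was above background on all 12 arrays and the other 5 on none. Of 9 markers of undifferentiated myoblasts and fibroblasts, 7 were above background on all arrays, as were the 4 cycling cell markers measured. In such pooled cultures, fewer cells of a type and less RNA per cell cannot be told apart.

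RefSeq windows of 250 bases before the gene start (build GRCm38.p6) were on hand for 7 of the 10 genes. Those of Casq1, Casq2 and Cacna1s are shown because the calsequestrin genes had different time courses and Cacna1s was one of 2 genes lower at all 3 times with LIF. Capitals mark the E-box, CANNTG, the form bound by myogenic basic helix-loop-helix factors. The windows are read 5′ to 3′ on the strand of the gene and end at the base before its start. They lie at chr1:172219896-172220145 on the minus strand for Casq1, at chr3:102086165-102086414 on the plus strand for Casq2 and at chr1:136052561-136052810 on the plus strand for Cacna1s.
Casq1: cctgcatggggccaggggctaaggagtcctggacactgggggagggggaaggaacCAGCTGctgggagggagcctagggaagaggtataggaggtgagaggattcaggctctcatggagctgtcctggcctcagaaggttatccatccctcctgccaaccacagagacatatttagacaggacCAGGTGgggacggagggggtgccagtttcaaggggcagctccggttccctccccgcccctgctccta
Casq2: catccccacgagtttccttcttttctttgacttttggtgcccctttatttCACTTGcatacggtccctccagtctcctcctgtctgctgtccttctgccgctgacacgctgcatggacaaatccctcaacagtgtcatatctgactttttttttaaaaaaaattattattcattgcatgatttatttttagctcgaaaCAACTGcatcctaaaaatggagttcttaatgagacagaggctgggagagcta
Cacna1s: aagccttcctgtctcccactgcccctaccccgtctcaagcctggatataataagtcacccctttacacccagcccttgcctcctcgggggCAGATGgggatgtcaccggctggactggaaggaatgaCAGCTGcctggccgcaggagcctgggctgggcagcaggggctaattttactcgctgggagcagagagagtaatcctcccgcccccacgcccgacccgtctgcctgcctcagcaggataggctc
The matches begin 195 and 67 bases upstream of the start in Casq1, 200 and 52 in Casq2, and 160 and 123 in Cacna1s. An E-box stood in the windows of 6 of the 7 genes and in 66.2% of all 32851 windows of this length. Its form CAGCTG, which lies within the E-box pattern, stood in 4 of the 7, Cacna1s, Atp2a1, Casq1 and Jph2, and in 13.0% of all windows. The STAT form TTCNNNGAA was in none of the 7 and in 7.02% of all windows, and a narrow MEF2 site, with C as its first and G as its last letter, was in none of the 7 and in 0.508%. A wider MEF2 site, searched later, that also takes T first and A last stood in the Casq2 window, 69 bases upstream of the start and not in capitals, and in 2.92% of all windows. All 5 patterns read the same on both strands, and a match is only a run of letters.

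No gene of the release and store apparatus passed the test with either agent, and none differed by 2-fold at any time. The fit was limma over all 12 arrays, with the treated and untreated array of 1 agent and time as a pair and Benjamini-Hochberg adjustment over all 21187 genes at 0.05. It takes the mean of the 3 times, which stand as repeats and are not replicates. Its errors, pooled over both agents, mix change of the response over time with noise between arrays, which cannot be told apart. With LIF 0 of 10 genes passed, beside 0% of all genes. With conditioned medium 0 of 10 passed, beside 0.217% of all genes, 45 higher and 1 lower, a count that was 0 or 1 when any 1 time was left out. At an unadjusted p under 0.05 stood 3 of the 10 genes with LIF, beside 1445 of all genes (6.82%). With conditioned medium there were 2, beside 1585 (7.48%). These 2 were Jph1 and Sln, and Sln was in the background range on all 6 arrays of that experiment. The share of all genes past 2-fold in either direction was 0.0614%, 0.0472% and 0.142% with LIF at 4, 8 and 24 h. With conditioned medium it was 0.0755%, 0.340% and 0.392%.

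**Figure D1:**
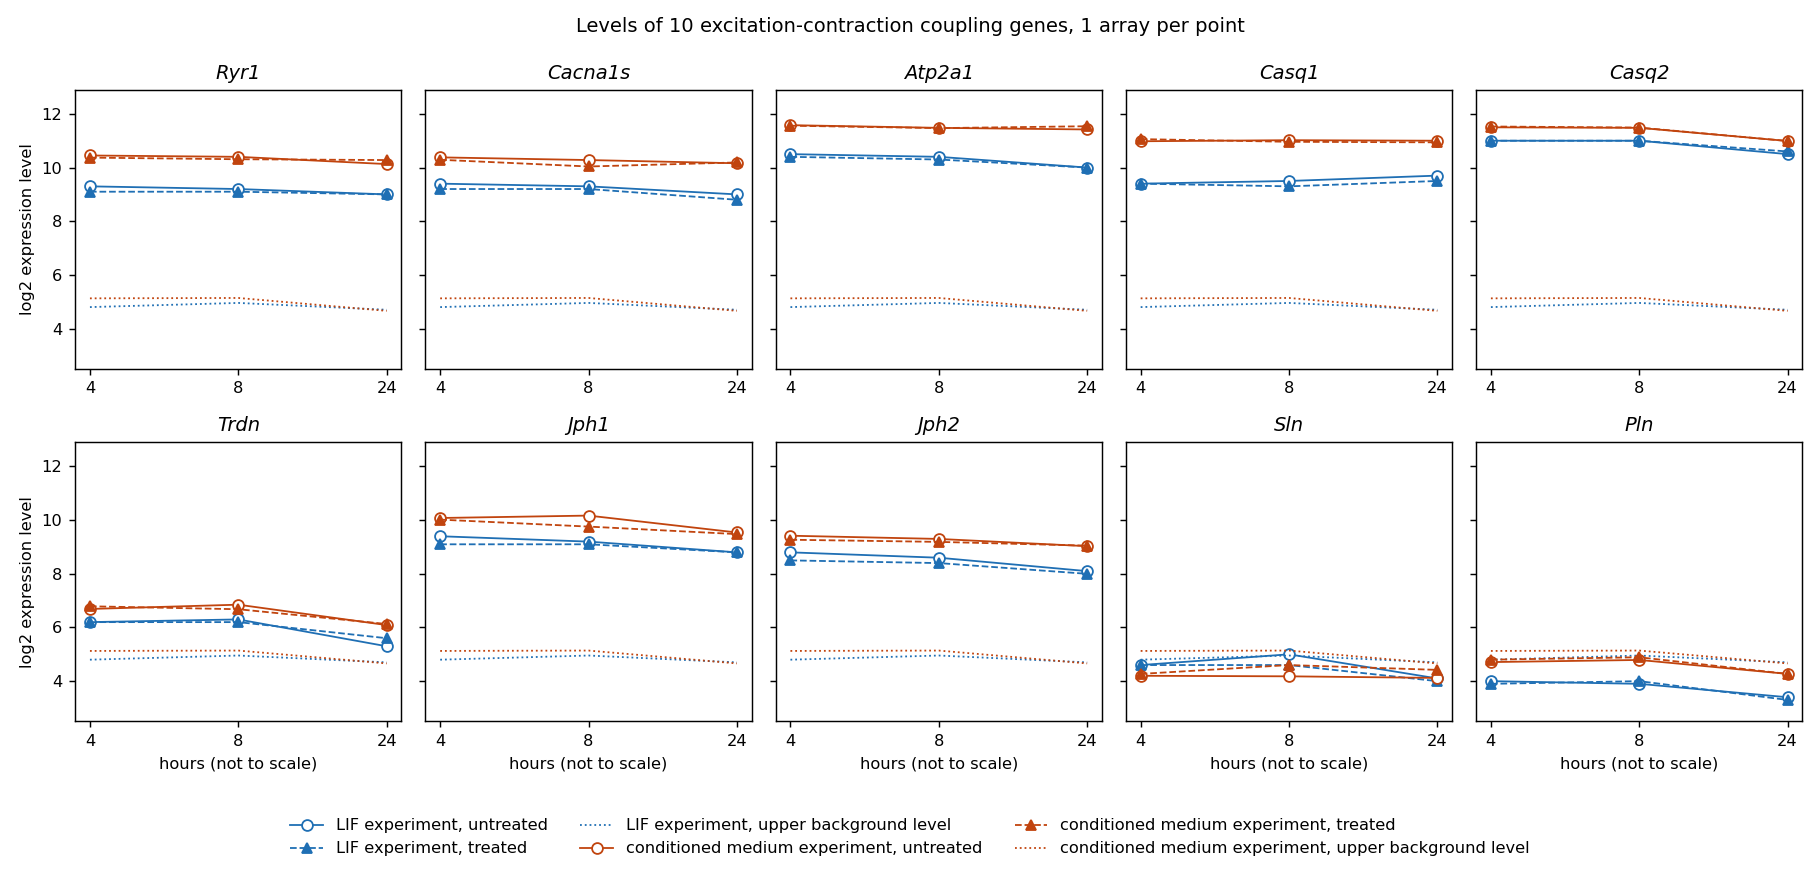
Log2 level (y axis) of each of the 10 genes at 4, 8 and 24 h (x axis, not to scale), 1 array per point, for untreated and treated cultures of both experiments, with dotted lines at the upper background level of the untreated arrays. Treated and untreated points of a time lie close together for every gene, within 0.42, while the experiments stand apart by more than that for most genes. The medians of the untreated arrays also differ between the experiments, by 0.64 to 0.74.

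Cacna1s, the pore subunit and voltage sensor of the dihydropyridine receptor, stood in untreated cultures of the LIF experiment at 9.4, 9.3 and 9.0 at 4, 8 and 24 h, and with LIF at 9.2, 9.2 and 8.8. Every LIF array was below the untreated array of its time, while the ranges of the arms overlapped. The mean log2 change was -0.17 ± 0.05 (SE, 95% interval -0.286 to -0.047, adjusted p = 0.496). In the conditioned medium experiment the levels were 10.38, 10.28 and 10.16 untreated and 10.29, 10.04 and 10.19 treated. The treated array was lower at 4 and 8 h and higher at 24 h, with a mean of -0.10 ± 0.05 (SE, adjusted p = 0.759).

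Ryr1, the release channel, stood at 9.3, 9.2 and 9.0 untreated and at 9.1, 9.1 and 9.0 with LIF. The LIF array was lower at 4 and 8 h and equal at 24 h. With conditioned medium Ryr1 stood at 10.37, 10.31 and 10.28, against 10.45, 10.40 and 10.13 untreated. Here too the early treated arrays were the lower ones, and the 24 h array was higher by 0.15. The mean changes were -0.10 ± 0.06 with LIF (SE, adjusted p = 0.829) and -0.01 ± 0.06 with conditioned medium (SE, adjusted p = 0.992).

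Jph2, a junctophilin of striated muscle, had the lowest unadjusted p of the 10 genes with LIF. Its levels were 8.8, 8.6 and 8.1 untreated and 8.5, 8.4 and 8.0 with LIF, lower at each of the 3 times. The mean log2 change of -0.20 ± 0.055 (SE, 95% interval -0.323 to -0.077) had an adjusted p of 0.418. With conditioned medium the levels were 9.27, 9.19 and 9.05 against 9.42, 9.30 and 9.03 untreated, for a mean of -0.08 ± 0.055 (SE, adjusted p = 0.845). The treated array was lower at the early times and 0.02 higher at 24 h.

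Jph1, the other junctophilin of skeletal muscle, was the gene lowest against its control at a single time in the conditioned medium experiment. Levels were 10.08, 10.17 and 9.54 untreated and 10.02, 9.76 and 9.48 treated. The treated array was lower at all 3 times, and the 8 h difference of -0.41, which is 0.753 of the untreated level, was matched or passed downward by 1.06% of all genes. The mean was -0.18 ± 0.08 (SE, 95% interval -0.348 to -0.005, adjusted p = 0.644). With LIF, Jph1 stood at 9.1, 9.1 and 8.8 against 9.4, 9.2 and 8.8 untreated, a mean of -0.13 ± 0.08 (SE, adjusted p = 0.829).

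Casq1, the main calsequestrin of skeletal muscle, stood in the LIF experiment at 9.4, 9.5 and 9.7 untreated and at 9.4, 9.3 and 9.5 with LIF. The arms were equal at 4 h and LIF was 0.2 lower at 8 and 24 h, with a mean of -0.13 ± 0.05 (SE, adjusted p = 0.601). In the conditioned medium experiment it stood at 10.98, 11.02 and 11.00 untreated and 11.06, 10.96 and 10.94 treated, a mean of -0.01 ± 0.05 (SE, adjusted p = 0.988).

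Casq2, the calsequestrin of heart and slow muscle, differed least between treated and untreated arrays. It stood at 11.0, 11.0 and 10.5 untreated and 11.0, 11.0 and 10.6 with LIF. In the other experiment it stood at 11.50, 11.48 and 10.99 untreated and 11.53, 11.49 and 10.99 treated. No treated array was more than 0.1 from its control, and the intervals of the mean change ran from -0.042 to 0.109 with LIF and from -0.062 to 0.089 with conditioned medium.

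Trdn, which encodes triadin, was above background on all 12 arrays. It stood at 6.2, 6.3 and 5.3 untreated and at 6.2, 6.2 and 5.6 with LIF, so that the LIF array was 0.3 higher at 24 h. With conditioned medium it stood at 6.79, 6.68 and 6.13 against 6.69, 6.85 and 6.09. The sign of the difference was not the same at the 3 times for either agent, and the adjusted p values were 0.929 and 0.992.

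Atp2a1, the pump of fast fibres, stood at 10.5, 10.4 and 10.0 untreated and 10.4, 10.3 and 10.0 with LIF. In the conditioned medium experiment it stood at 11.58, 11.48 and 11.42 untreated and 11.56, 11.47 and 11.54 treated. Treated and untreated arrays lay within 0.12 of each other throughout, and the intervals of the mean change were -0.156 to 0.023 with LIF and -0.06 to 0.12 with conditioned medium.

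Sln, the pump inhibitor sarcolipin, stood at 4.20, 4.18 and 4.12 untreated and at 4.27, 4.60 and 4.42 with conditioned medium. Every treated array was above every untreated array of that experiment, and all 6 were in the background range. The mean log2 change was 0.26 ± 0.10 (SE, 95% interval 0.038 to 0.488, adjusted p = 0.528). In the LIF experiment Sln stood at 4.6, 5.0 and 4.1 untreated and 4.6, 4.6 and 4.0 with LIF. The 8 h difference of -0.4 came from the 1 untreated array above background, and the mean was -0.17 ± 0.10 (SE, adjusted p = 0.838).

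Pln, the pump inhibitor phospholamban, lay between 3.3 and 4.0 in the LIF experiment and between 4.27 and 4.89 in the conditioned medium experiment, all in the background range. Its mean changes were -0.03 ± 0.08 with LIF and 0.06 ± 0.08 with conditioned medium (SE, adjusted p = 0.929 and 0.939).

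**Figure D2:**
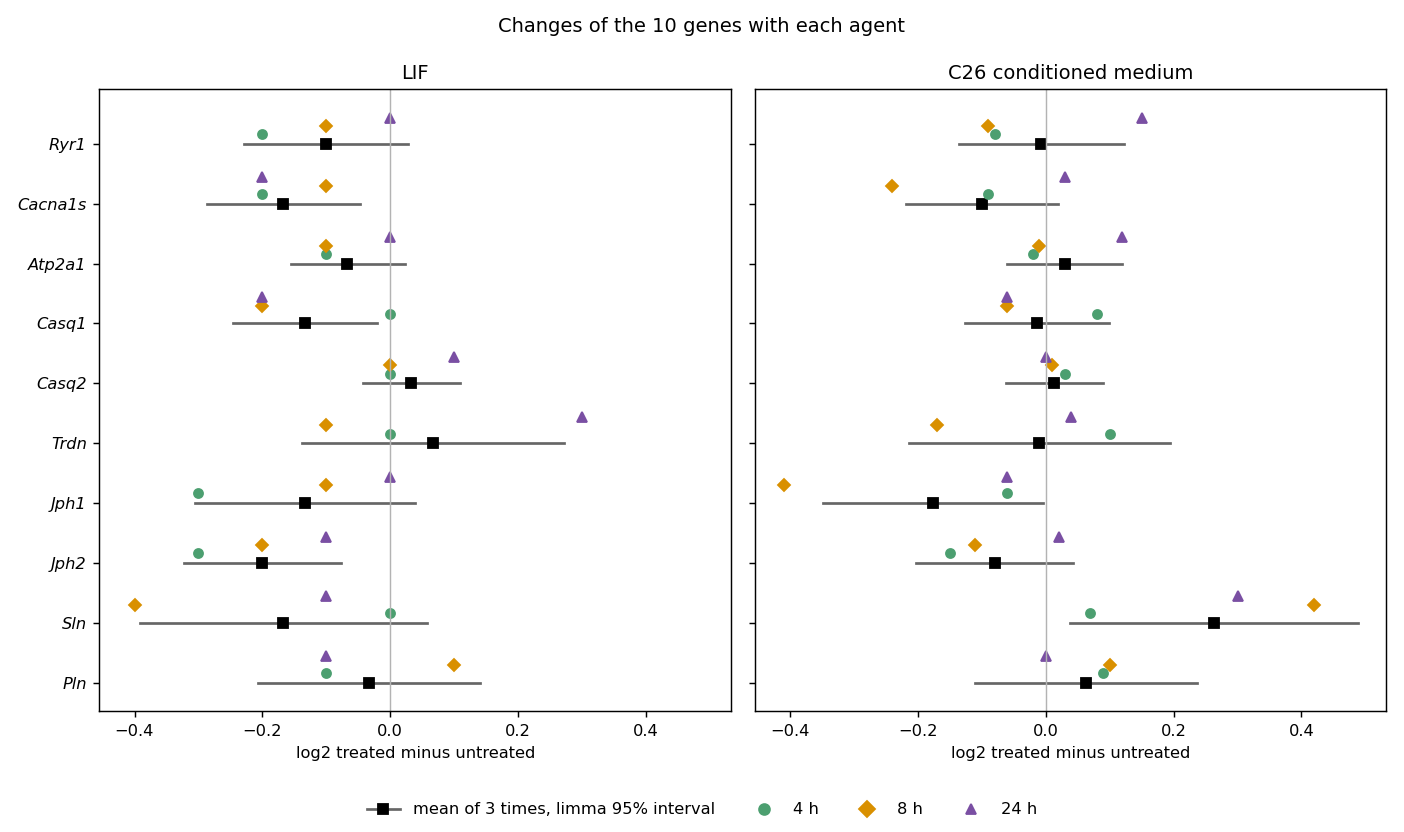
Log2 treated minus untreated (x axis) of each gene (y axis) with LIF, left, and conditioned medium, right. Squares are the mean of 3 times with the limma 95% interval, and circles, diamonds and triangles are the single differences at 4, 8 and 24 h, set above the square so that they do not hide each other. With LIF 8 of 10 squares lie below 0, and with conditioned medium the Jph1 difference at 8 h and the Sln differences at 8 and 24 h lie farthest out.

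With LIF the median of their mean log2 changes was -0.12, beside 0.0 over all genes, and 8 of 10 had a mean below 0, beside 43.9% of all genes. Among the 8 genes above background on all arrays 6 had a mean below 0, beside 39.4% of such genes. With steps of 0.1 a mean can be exactly 0, and both shares count such a gene as not below 0. Of all 21187 genes 9306 lay below 0 and 8366 above, while the 10 genes had 8 below and 2 above. Cacna1s and Jph2 were lower at all 3 times, beside 6.15% of all genes, and 0 were higher at all 3, beside 4.67%. Leaving out the 4 h pair brought the median to -0.05. With conditioned medium the median was -0.01, beside 0.0 over all genes to 2 decimals, and 6 of 10 means lay below 0, beside 50.8%. Of the 8 genes above background 6 had a mean below 0, beside 53.0% of such genes. Jph1 was lower at all 3 times, beside 12% of all genes, and Sln was higher at all 3, beside 11.3%.

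Differences of at least 1.2-fold at a single time were set beside the share of all genes that changed as much. With LIF they were Jph1 and Jph2 at 4 h, lower, beside 3.32% of all genes, Sln at 8 h, lower, beside 3.82%, and Trdn at 24 h, higher, beside 5.42%. None of the 10 was that much higher with LIF at 4 and 8 h, beside 5.02% and 3.30%, or lower at 24 h, beside 8.22%. With conditioned medium none reached it at 4 h, beside 2.69% of all genes lower and 2.60% higher, or was lower at 24 h, beside 8.15%. Jph1 was that much lower at 8 h, beside 3.48% of all genes, and Sln that much higher at 8 h, beside 4.19%, and at 24 h, beside 9.51%. Each such value comes from 1 pair of arrays and has no test, and Sln was above background on only 1 array.

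The agents were compared through the difference of their mean changes, conditioned medium minus LIF. None of the 10 genes passed, beside 0% of all genes, and at an unadjusted p under 0.05 stood 1, Sln, beside 949 of all 21187 genes. Sln had the widest difference, 0.43 ± 0.14 (SE, 95% interval 0.112 to 0.748, adjusted p = 0.967), at levels in the background range on 11 of the 12 arrays. For the 8 genes above background the intervals of the difference lay between -0.366 and 0.293, so differences of that size between the agents remain possible.

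The response at 24 h was set against that at 4 h in a fit with a time effect shared by the agents. Here the 2 agents stand as repeats, which are not replicates, and 2 residual degrees of freedom remained. None of the 10 genes passed, beside 0.401% of all genes, of which 25 were higher and 60 lower at 24 h. Over all genes that count, 85 as reported, ran from 0 to 138 under other processing at the same threshold. Ryr1 had a difference of 0.215 ± 0.078 (SE, adjusted p = 0.458), from arrays that were below their controls at 4 h and level or above at 24 h. Casq1 had -0.17 ± 0.07 (SE, adjusted p = 0.586). In the same fit Mki67 and Cdk1, of 4 cycling cell markers, had a lower response at 24 h than at 4 h, with differences of -0.645 and -0.50 (adjusted p = 0.00856 and 0.0391). Dcn and Col3a1, of 9 myoblast and fibroblast markers, were higher by 0.91 and 0.475 (adjusted p = 0.00751 and 0.0269), and Ttn, of 12 myotube markers, by 0.425 (adjusted p = 0.0391). No other gene of these 3 lists passed. All 4 cycling cell markers lay below 0, between -0.645 and -0.49. The other 7 myoblast and fibroblast markers lay between -0.105 for Col1a1 and 0.17 for Pax7, and the other 11 myotube markers between -0.195 for Myh8 and 0.155 for Des. The log2 of the summed level of the cycling markers was 9.18 to 11.13 with LIF and 9.47 to 11.04 without, and 10.73 to 12.23 with conditioned medium and 11.23 to 12.19 without. For the myoblast and fibroblast markers it was 12.17, 12.23 and 11.76 with LIF, against 12.12, 12.15 and 11.61 untreated. With conditioned medium it was 12.59, 12.7 and 12.54, against 12.58, 12.58 and 12.29 untreated. The part of these cells in the values of the 10 genes was not tested.

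The calsequestrin genes had different time courses in culture, whether treated or not. Once each array's median was taken off, Casq1 was higher at 24 h than at 4 h by 0.8 in untreated and 0.6 in treated cultures of the LIF experiment. In the conditioned medium experiment the same differences were 0.59 and 0.46. Those of Casq2 were 0.0, 0.1, 0.06 and 0.04 in the same order. In untreated cultures 1.15% of all genes had a higher value than Casq1 in the LIF experiment and 4.47% in the conditioned medium experiment. In treated cultures the shares were 2.65% and 12.62%, and with conditioned medium Ryr1 at 0.49, Cacna1s at 0.48, Atp2a1 at 0.56 and Sln at 0.73 lay above Casq1. As deposited, with medians 0.5 to 0.58 lower on the 24 h arrays, the Casq1 differences were 0.3, 0.1, 0.02 and -0.12. After quantile normalization they were 0.9, 0.66, 0.51 and 0.36. The Casq2 differences also moved with the scaling. They were -0.5, -0.4, -0.51 and -0.54 as deposited, and 0.1, 0.18, -0.12 and -0.19 after quantile normalization. Time and the array set cannot be told apart here, and these differences are a description with no test.

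**Figure D3:**
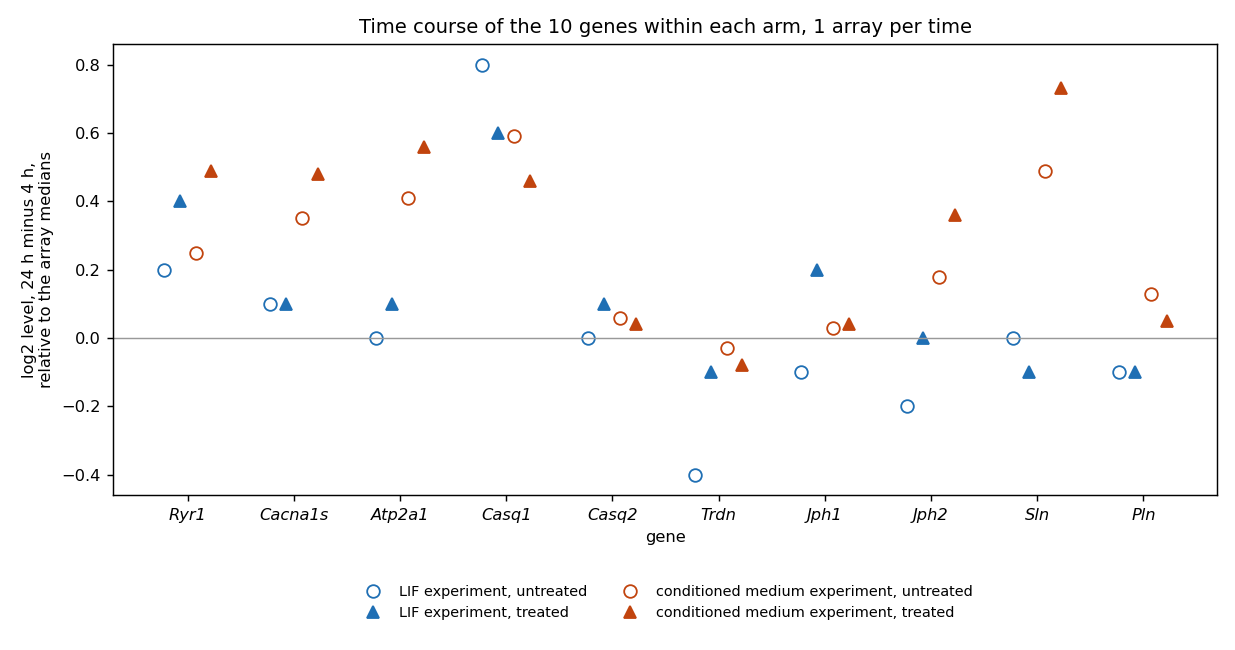
Log2 level at 24 h minus 4 h after each array's median is taken off (y axis) for each gene (x axis), 1 pair of arrays per point, in the untreated (open circles) and treated (triangles) arms of both experiments. Casq1 lies between 0.46 and 0.8 in all 4 arms and Casq2 between 0.0 and 0.1.

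The other genes were also set at 24 h against 4 h relative to the array medians. Atp2a1 was at 0.0 in untreated cultures of the LIF experiment and at 0.41 in those of the conditioned medium experiment. Cacna1s stood at 0.1 and 0.35, and Ryr1 at 0.2 and 0.25. Trdn was the lowest, at -0.4 and -0.03. After quantile normalization Atp2a1 stood at 0.1 and 0.19, Cacna1s at 0.24 and 0.32, and Ryr1 at 0.33 and 0.23. Between untreated cultures of the experiments, Casq1 was higher in the conditioned medium experiment by 0.87, 0.78 and 0.66 at 4, 8 and 24 h relative to the array medians. Casq2 was lower there, with -0.21, -0.26 and -0.15. After quantile normalization the values were 0.63, 0.57 and 0.25 for Casq1 and -0.28, -0.29 and -0.49 for Casq2. Culture and array set cannot be told apart in that comparison.

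Of 61 further genes of the pathway in 6 lists, none passed for LIF, for conditioned medium or for their difference, higher or lower. At an unadjusted p under 0.05 stood 6 of the 61 with LIF, beside 6.82% of all genes, and 4 with conditioned medium, beside 7.48%. With LIF the list medians were -0.03 in 5 lists, and -0.07 for the 5 membrane excitation genes, while 20 sarcomere genes outside the pathway had 0.0. With conditioned medium the medians lay between -0.03 and 0.05. Among the 19 partners of the voltage sensor and the triad, Ank1, which encodes the small ankyrin that anchors the reticulum to the contractile apparatus, stood 0.2 below its control at each time with LIF (-0.20 ± 0.06, SE, adjusted p = 0.488). Stac3, an adaptor that the voltage sensor needs, had -0.17 ± 0.07 (SE, adjusted p = 0.642) with LIF. Fkbp1b, which binds release channels, had 0.17 ± 0.07 (SE, adjusted p = 0.646) with conditioned medium.

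Rem1, a small GTPase that inhibits voltage-gated calcium channels, was below its control at all 3 times with both agents. Its mean was -0.20 ± 0.06 with LIF and -0.17 ± 0.06 with conditioned medium (SE, adjusted p = 0.467 and 0.445). Ppp3ca, a catalytic subunit of the calcium-dependent phosphatase calcineurin, had 0.14 ± 0.06 with conditioned medium (SE, adjusted p = 0.577). Slc8a1, a sodium-calcium exchanger, had 0.20 ± 0.10 with conditioned medium (SE, adjusted p = 0.714) and was above background on 6 of 12 arrays. Jph4, a junctophilin of neurons, had -0.23 ± 0.09 with LIF (SE, adjusted p = 0.625). Atp2b4, Itpr3 and Stim2, named by the same rule, had means between -0.08 and 0.09 with conditioned medium.

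**Figure D4:**
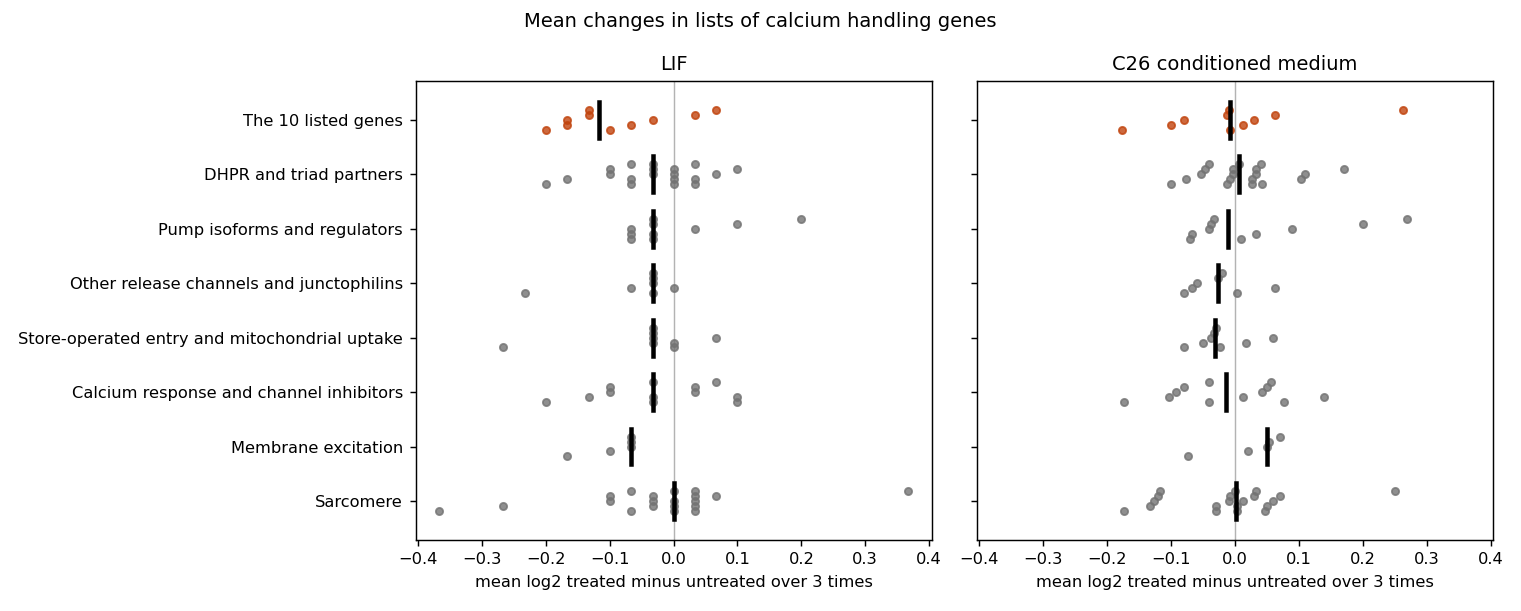
Mean log2 change (x axis) of every gene, 1 point each, by list (y axis) with LIF, left, and conditioned medium, right, with a bar at the list's median. The medians lie between -0.12 and 0.05, and no gene of the lists drawn passed the test.

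Over the 6 differences of agent and time, the correlations among the 10 genes were mixed. The Pearson correlation of a gene with the median of the other 9 ran from 0.753 for Jph2 and 0.64 for Atp2a1 to -0.239 for Pln and -0.242 for Casq2. Of 10546 genes compared, the profiles most like the median of the 10 were those of Capn3 (r = 0.996), a muscle calpain, Kidins220 (0.991), Twsg1 (0.975), Eng (0.973) and Gm4972 (0.969). These correlations rest on 6 differences, of which the 3 of an agent share an experiment, and are a description with no test. The median profile had a root mean square of 0.069, below the 0.1 step of the LIF levels. High or low correlations at that size cannot be told apart from rounding and noise.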

How the data were processed

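The deposited value table holds log2 expression levels of 21187 genes on 12 Affymetrix Mouse Gene 1.0 ST arrays, made with RMA per the submitters' processing notes. Its version and the build were not given in the sources used here. Signed fold changes, treated over untreated, are held by the authors' deposited tables as a score per gene and time. They lay within rounding of the table's log2 differences for 100% of genes and served as a check and an alternative. With LIF values at 1 decimal, that rounding is wider than most differences, so the check is weak there. Another 12 per-sample columns in those tables stayed unused. Of the Entrez identifiers, 20819 matched RefSeq (GRCm38.p6), and no symbol was found for 15 genes.

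The levels entered limma 3.58.1 (R 4.3.3; eBayes with a trend in the variances) without filter or further scaling. Each agent had its own treatment effect, each pair of treated and untreated arrays was a block, and 4 residual degrees of freedom remained. Adding an effect of time on the response, common to the agents, left 2. P-values were adjusted over all genes by Benjamini-Hochberg at 0.05. With 1 array per group, the number of arrays limits the precision.

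The 10 genes and the lists were chosen with earlier results of these data known. From each pathway list the text names genes that passed, or else the 2 with the largest mean change per agent among those above background on that agent's arrays and with 1 sign at all 3 times; 1 gene so chosen is not reported here. The 5 genes named for their correlation were those with the highest values against the median profile. Ccnb1, on the cycling list, had no matching identifier. Alternatives were filters on dim genes, other variance settings, normalization, rounding, the authors' folds, a threshold of 0.10, the agent's 6 arrays alone, and each time left out.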

Additional observations from a re-analysis of the deposited data

How the results depend on the processing

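Members passing the threshold numbered 0 under every alternative run, for all 4 contrasts. Of the members' mean changes under the alternatives, 247 did not reverse and 7 did. Filters on dim genes, variance settings, the threshold and the agent's 6 arrays alone leave a fitted mean unchanged, so they cannot reverse it. Centring on array medians also left the members' means as they were, and rounding the conditioned medium values left those with LIF. The values of all these settings are among the 247, which is therefore no measure of stability. Means of 0.0, as for Ryr1, Casq1 and Casq2 with conditioned medium after rounding, were counted as not reversed. All 7 reversals came from leaving out a time. Trdn with LIF was -0.05 without 24 h, in a range of -0.05 to 0.15. With conditioned medium, Ryr1 was 0.03 without 4 h and 0.035 without 8 h (range -0.085 to 0.035), and Casq1 was 0.01 without 8 h and without 24 h (range -0.06 to 0.01). Trdn was 0.07 without 8 h (range -0.065 to 0.07), and Atp2a1 was -0.015 without 24 h (range -0.015 to 0.055). Their cause was not tested, and the means reversed were themselves between -0.013 and 0.067.

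The median of the members with LIF was -0.067 from the authors' fold changes and ran from -0.125 to -0.05 with a time left out. With conditioned medium it ran from -0.025 to 0.025. Without the 2 members in the background range, an alternative chosen after seeing the data, the medians were -0.117 and -0.012. Over all genes, the count with LIF was 8 without the dimmest 25%, 12 with robust variances, 12 after quantile normalization and 28 at 0.10, beside 0 as reported. The count with conditioned medium, 46 as reported, was 25 without the dimmest 50%, 0 with no variance trend, 25 with robust variances, 13 from the authors' folds, 0 after rounding to 1 decimal, 0 on its 6 arrays alone, 76 at 0.10 and 0 to 1 with a time left out. For 24 h minus 4 h it was 0 with no variance trend, 136 with robust variances, 26 after quantile normalization, 138 after centring, 0 after rounding and 165 at 0.10, beside 85. The causes were not tested.

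No member reached 1.5-fold at any time, so every count past 1.2-fold became 0 there. After quantile normalization the count was 2 lower in conditioned medium at 8 h and 0 higher at 24 h. The untreated time course of Casq2 in the conditioned medium experiment reversed to -0.12 and that of Jph1 in the LIF experiment to 0.05 after quantile normalization. The fit itself pairs the treated and untreated arrays of an agent and time, and the labels give no replicate numbers for another pairing.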
